A study of Mus musculus with 24 samples.

Results

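Transcripts of 9 chemokine receptors and marrow egress receptors were followed through B cell development in VHL flox/flox and VHL flox/WT mice. Vhl is the substrate-binding part of a ubiquitin ligase that targets hypoxia-inducible factor. The members were taken by gene symbol from a listed set: Cxcr4, Cnr2, S1pr1, S1pr4, Cxcr5, Ccr6, Ccr7, Ccr9 and Gpr183. They are 9 of the 24421 genes in the count table, and all 9 passed the filter on low counts. For description they were split by known role into 2 retention receptors (Cxcr4 and Cnr2), 2 egress receptors (S1pr1 and S1pr4) and 5 homing and positioning receptors (Cxcr5, Ccr6, Ccr7, Ccr9 and Gpr183).

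The study sequenced RNA from bone marrow B cells of 8 mice, with 3 libraries from each animal. The sorts were a joint pro-B and pre-B population, written proBpreB here as in the labels, immature B cells and mature B cells. All mice were MB1 Cre +/WT, so a recombinase driven in the B lineage was present in controls too. Of the mice, 4 were VHL flox/flox and 4 were VHL flox/WT, which gave 6 groups of 4 libraries. The control group therefore also carried a floxed allele that the recombinase can delete, and is not a wild-type group. Ages, sexes and the surface markers of the sort gates are not given in the labels.

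Developing B cells sit in marrow niches of CXCL12-producing stroma and are held there by CXCR4, a Gαi-coupled receptor. As they mature, S1PR1 reads the sphingosine-1-phosphate gradient between marrow and blood and draws cells out, while CNR2, a cannabinoid receptor, helps keep immature cells in the marrow sinusoids. Cells that have left use CXCR5, CCR7 and GPR183 (EBI2, an oxysterol receptor) to find follicles and their borders in lymphoid organs.

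Vhl checked the genotype labels. It was lower in flox/flox libraries of every population, at 10.2 ± 3.37 against 25.3 ± 2.02 CPM (proBpreB), 5.58 ± 2.31 against 35.5 ± 8.88 CPM (immature) and 7.60 ± 1.90 against 29.1 ± 2.81 CPM (mature) (SD, n = 4 mice; two-sided exact permutation p = 0.0286 in each, the smallest that 70 assignments give). CPM is the count scaled by TMM to a common library total. Totals ran from 7850186 to 11863949 counts per library, so 3 counts were worth 0.253 to 0.382 CPM. All 6 B lineage markers looked for had a mean of at least 1 CPM in each group, and the summed level of 12 pro-B and pre-B markers was 3843 to 5043 CPM in proBpreB flox/WT libraries against 198 to 323 CPM in mature ones. Summed erythroid markers reached 21077 CPM, and summed neutrophil and monocyte markers 20028 CPM, in mature flox/flox libraries, so the sorts also held transcripts of other marrow cells.

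In flox/WT mice, 7 of the 9 receptors were called higher in mature than in proBpreB cells, beside 29.2% of all genes higher and 29.6% lower. Ccr9 and Cxcr4 were called lower, and the Cxcr4 call was lost under 7 of 15 alternative settings. Between genotypes, 7 tests of members passed over the 3 populations, and the shares of all genes called are given below. Of these calls, 3 held under all 15 alternative settings: Cnr2 and Ccr7 in proBpreB cells and Gpr183 in immature cells. In proBpreB cells Cnr2, Ccr7 and Gpr183 were lower in libraries of flox/flox mice. In immature cells Cxcr5, Ccr6 and Gpr183 were lower in them and S1pr4 was higher. In mature cells no receptor passed the test.

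Those calls are from edgeR's quasi-likelihood test with Benjamini-Hochberg adjustment over 12850 genes at 0.05. Of the 9 members, 3 were called in proBpreB cells, where 6.13% of all tested genes were called (3.38% higher and 2.75% lower). All 3 members were lower. In immature cells 1 was higher and 3 were lower, beside 20.7% of all genes (10.2% higher and 10.5% lower). In mature cells the count was 0, beside 16.3% of all genes (9.69% higher and 6.62% lower). There, 0 of the 9 had an unadjusted p under 0.05 and DESeq2 also called 0. The median log2 change of the 9 was -0.53 at the proBpreB stage, 0.16 at the immature stage and -0.13 at the mature stage, and that of all genes lay between -0.00 and 0.01. In bulk sorts, fewer cells of a type and less RNA per cell cannot be told apart.

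**Figure D1:**
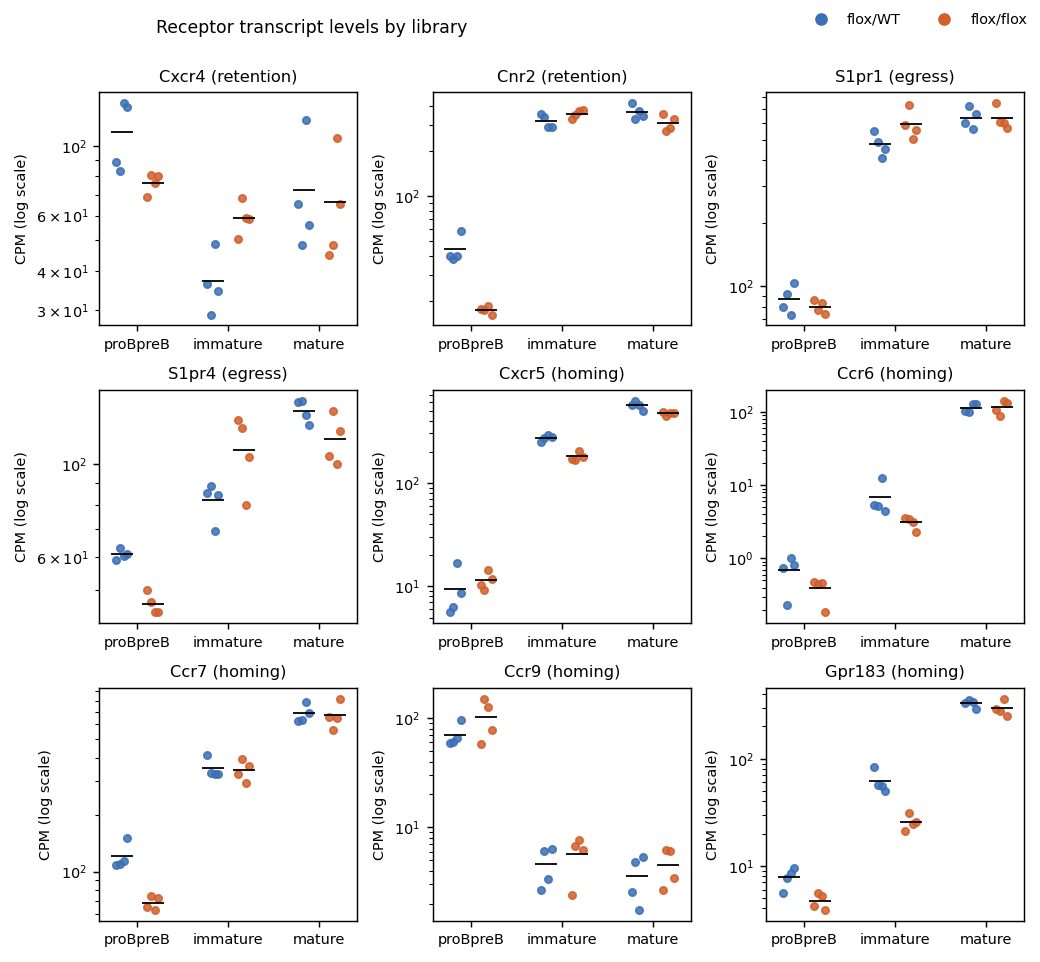
Level of each receptor in every library, as CPM on a log axis, for the 3 populations on the horizontal axis. Blue points are flox/WT and orange points flox/flox mice (n = 4 each), and black bars are means. Ccr6 and Cxcr5 span the widest ranges across stages, and Cnr2 is lower in all 4 flox/flox proBpreB libraries.

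Cxcr4, the CXCL12 receptor, lies on chromosome 1 at 128588199 to 128592293 on the minus strand (GENCODE M21, GRCm38). In proBpreB cells it measured 89.1, 83.5, 137 and 133 CPM in flox/WT libraries and 68.5, 80.7, 76.0 and 80.4 CPM in flox/flox libraries. All 4 flox/flox values lay under the lowest flox/WT value. The log2 change was -0.53 ± 0.26 (SE), which did not pass (edgeR adjusted p = 0.269). In immature cells the order was turned: 36.4, 29.0, 48.8 and 34.5 CPM in flox/WT libraries and 50.5, 68.4, 58.9 and 58.3 CPM in flox/flox libraries. Again the groups did not overlap, and the flox/flox mean was 159% of the flox/WT mean. The log2 change there was 0.66 ± 0.27 and missed the threshold over all genes (edgeR adjusted p = 0.0814). It passed without flox/WT replicate 3 (0.82, edgeR adjusted p = 0.0121), with DESeq2 (0.67, adjusted p = 0.0439) and with only the immature groups fitted (edgeR adjusted p = 0.00573). It also passed with the replicate number as a block (0.71, edgeR adjusted p = 0.00929). Between genotypes, here and for the receptors below, that number only joins different mice. Summed neutrophil and monocyte markers moved the same way, from 7925 to 9362 CPM in immature flox/WT libraries and from 11600 to 15541 CPM in immature flox/flox libraries, as did summed erythroid markers (2439 to 7994 and 10176 to 18970 CPM). Their part in the Cxcr4 values was not tested.

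In mature cells Cxcr4 ranged from 48.2 to 121 CPM in flox/WT and from 45.0 to 106 CPM in flox/flox mice. In both genotypes the highest value was that of replicate 3, and the groups overlapped almost fully (log2 change -0.13, 95% interval -0.67 to 0.41). The genotype effect on Cxcr4 differed between immature and proBpreB cells by 1.20 ± 0.37 on the log2 scale (edgeR adjusted p = 0.0391). That difference lost its call when any of 5 mice was left out (flox/flox replicates 1, 2 and 4, flox/WT replicates 1 and 4), with adjusted p of 0.142 without flox/WT replicate 4 as the highest, and with no expression filter (1.19, 0.0856).

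RefSeq's promoter table (GRCm38.p6) held windows for 6 of the 9 members. S1pr1, Cxcr5 and Ccr7 had none in it. The 250 bases before each start were searched on both strands for ACGTG, the core of the hypoxia response element, and CACCC, a core bound by Klf factors. These occur in 16.6% and 52% of 32841 such windows. GCGTG, another form of the hypoxia element core, was added after the sequences had been seen and occurs in 28.2%. Among the 8 windows of members, ACGTG was in 2 (Gpr183 and a Ccr6 window), CACCC in 3 (Cxcr4, S1pr4 and Ccr9) and GCGTG in 1 (Cxcr4). Shown here are the windows with either hypoxia core, since they belong to receptors whose genotype groups did not overlap in immature cells. They are the Cxcr4 window at chr1:128592300-128592549 on the minus strand, the Gpr183 window at chr14:121965194-121965443 on the minus strand and the Ccr6 window at chr17:8242276-8242525 on the plus strand. Motif letters are in capitals, and a motif on the other strand is written as its reverse complement (CACGT).
Cxcr4: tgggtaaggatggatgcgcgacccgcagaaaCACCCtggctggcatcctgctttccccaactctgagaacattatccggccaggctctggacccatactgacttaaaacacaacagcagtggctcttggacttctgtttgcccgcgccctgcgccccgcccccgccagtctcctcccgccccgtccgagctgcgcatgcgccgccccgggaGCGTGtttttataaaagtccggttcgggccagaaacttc
Gpr183: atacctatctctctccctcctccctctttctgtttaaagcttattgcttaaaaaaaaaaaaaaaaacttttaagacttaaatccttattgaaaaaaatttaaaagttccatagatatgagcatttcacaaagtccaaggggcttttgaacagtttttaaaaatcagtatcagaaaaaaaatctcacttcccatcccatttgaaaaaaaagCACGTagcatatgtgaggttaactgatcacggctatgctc
Ccr6: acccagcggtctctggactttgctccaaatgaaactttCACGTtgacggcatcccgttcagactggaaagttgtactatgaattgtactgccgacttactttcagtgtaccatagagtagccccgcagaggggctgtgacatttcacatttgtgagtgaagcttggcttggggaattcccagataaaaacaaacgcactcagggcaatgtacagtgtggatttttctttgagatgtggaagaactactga
In Cxcr4 the GCGTG begins 39 bases before the start and a CACCC 219 bases before it, and the 2 do not overlap. The match in Gpr183 lies 40 bases before the start, and that in Ccr6 212 bases before a start that lies within the gene. The other Ccr6 window, chr17:8235793-8236042, adjoins the annotated gene start at 8236043 and held no motif. The windows were picked for display by genotype values of these data, and GCGTG was added late. They therefore cannot show a link between a core and the direction of a change. A match says only that the letters are present.

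Cnr2, on chromosome 4 at 135895394 to 135920207, was the member with the smallest adjusted p among the genotype effects. In proBpreB cells flox/WT libraries gave 40.1, 37.9, 39.7 and 59.0 CPM and flox/flox libraries 17.6, 17.5, 18.6 and 16.2 CPM. Every flox/flox library was below every flox/WT library, and the flox/flox mean was 39.6% of the flox/WT mean. The log2 change was -1.34 ± 0.13 (95% interval -1.60 to -1.07; edgeR adjusted p = 1.24e-08), and the call held under all 15 alternatives tried. Summed B lineage markers were also lower there, at 2975 to 3107 CPM in flox/flox against 4244 to 4906 CPM in flox/WT libraries, and of 9 mature B markers 6 fell, among them Ms4a1 (CD20, log2 change -1.78), and 1 was called higher. The summed mature B level overlapped between genotypes, at 1858 to 2484 CPM in flox/WT and 1488 to 2151 CPM in flox/flox libraries. Their part in the fall of Cnr2 was not tested.

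In immature cells Cnr2 reached 289 to 355 CPM in flox/WT and 329 to 374 CPM in flox/flox mice, and in mature cells 326 to 419 and 274 to 352 CPM. The genotypes overlapped at both stages (log2 changes 0.16 and -0.24, edgeR adjusted p = 0.385 and 0.181). The genotype effect differed from that in proBpreB cells by 1.49 ± 0.18 in immature cells (edgeR adjusted p = 2.85e-06) and by 1.10 ± 0.18 in mature cells (0.000407).

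S1pr1, the main egress receptor, on chromosome 3 at 115710433 to 115715072, showed no call for genotype in any population. In proBpreB cells it measured 79.6, 92.0, 73.2 and 104 CPM in flox/WT and 85.8, 76.7, 83.5 and 73.6 CPM in flox/flox libraries. At the immature stage S1pr1 gave 553, 485, 410 and 452 CPM in flox/WT and 589, 734, 502 and 557 CPM in flox/flox libraries. The immature groups overlapped, with 3 of 4 flox/flox libraries above the highest flox/WT value. The log2 change was 0.33 ± 0.13 (edgeR adjusted p = 0.0662), and it passed without flox/flox replicate 3 (0.40, edgeR adjusted p = 0.0407), without flox/WT replicate 1 (0.41, 0.0307), with a filter of 10 CPM (0.35, 0.0423) and with the replicate number as a block (0.32, 0.0462). In mature cells S1pr1 ran from 562 to 722 CPM in flox/WT and from 570 to 748 CPM in flox/flox mice (log2 change -0.01, 95% interval -0.27 to 0.25).

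S1pr4, a second sphingosine-1-phosphate receptor of blood cells, is a gene of 1 exon on chromosome 10 at 81497747 to 81500132. In proBpreB cells it was 59.1, 63.2, 60.2 and 61.1 CPM in flox/WT and 50.0, 46.7, 44.2 and 44.2 CPM in flox/flox libraries. The groups were tight and did not overlap, but the log2 change of -0.40 ± 0.12 stood at the threshold (edgeR adjusted p = 0.0502). It passed under 6 alternatives, among them the replicate block (edgeR adjusted p = 0.0211) and DESeq2 (adjusted p = 0.0257). In immature cells flox/WT libraries held 85.6, 88.9, 69.3 and 84.6 CPM and flox/flox libraries 128, 122, 80.0 and 104 CPM. There 3 of 4 flox/flox libraries lay above all flox/WT libraries, and S1pr4 was called higher (log2 change 0.40 ± 0.12, edgeR adjusted p = 0.0169). That call was lost without flox/flox replicate 1 (0.31, edgeR adjusted p = 0.0975), flox/flox replicate 2 (0.34, 0.0667) or flox/WT replicate 3 (0.33, 0.0895), and with only the immature groups fitted (0.0576). Summed neutrophil and monocyte markers were also higher in immature flox/flox (11600 to 15541 CPM) than in immature flox/WT libraries (7925 to 9362 CPM). Their part in the S1pr4 values was not tested.

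In mature cells S1pr4 measured 124 to 142 CPM in flox/WT and 100 to 134 CPM in flox/flox mice (log2 change -0.23, edgeR adjusted p = 0.196). Its genotype effect in immature cells exceeded that in proBpreB cells by 0.80 ± 0.17 (edgeR adjusted p = 0.00253). The effect in mature cells was below that in immature cells by a difference of -0.63 ± 0.17 (0.0174), a call that was lost without flox/flox replicate 1 (-0.51, 0.113) and without flox/WT replicates 2 (-0.63, 0.0517) or 3 (-0.57, 0.0719).

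Set against each other per length, Cxcr4 exceeded S1pr1 in proBpreB cells and was far below it later. The log2 ratio of counts per kilobase of exon was 0.91, 0.61, 1.66 and 1.10 in proBpreB flox/WT libraries and 0.43, 0.83, 0.62 and 0.88 in proBpreB flox/flox libraries. In immature cells it was -3.17, -3.31, -2.32 and -2.96 in flox/WT and -2.79, -2.67, -2.34 and -2.50 in flox/flox libraries. The drop between these stages was seen in all 8 mice, and the genotypes overlapped in each population. In mature cells the ratio ran from -3.15 to -1.46 in flox/WT and from -3.30 to -1.75 in flox/flox mice. The sign in proBpreB cells depends on the scaling by exon length: without it the log2 ratio of counts averaged 0.32 in flox/WT and -0.06 in flox/flox mice, against -3.69 and -3.33 in immature cells. These ratios are a description, since they reuse the counts tested above.

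**Figure D2:**
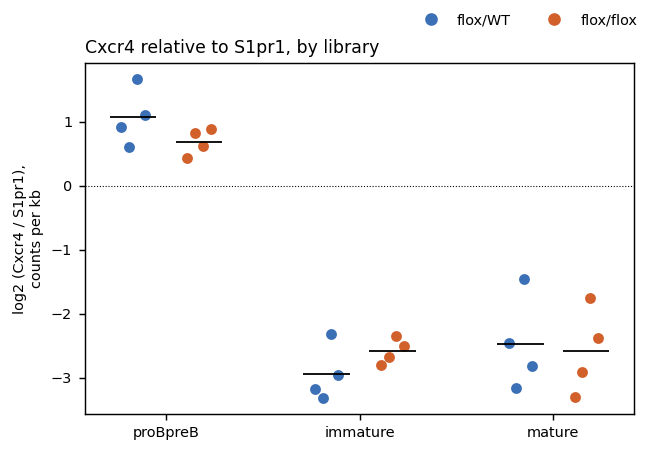
Log2 ratio of Cxcr4 to S1pr1 counts per kilobase of exon in each library (vertical axis) for the 3 populations, with flox/WT in blue, flox/flox in orange and means as black bars (n = 4). All proBpreB libraries lie above 0, from 0.43 to 1.66, and all immature and mature libraries lie below it.

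Cxcr5, the follicle-homing receptor for CXCL13, lies on chromosome 9 at 44511787 to 44561877 and shares 110 exonic bases with Bcl9l on the other strand. In immature cells it measured 248, 274, 289 and 278 CPM in flox/WT and 171, 167, 203 and 179 CPM in flox/flox libraries. The groups were well apart, with the flox/flox mean at 66.1% of the flox/WT mean, and Cxcr5 was called lower (log2 change -0.60 ± 0.18, edgeR adjusted p = 0.016). Adjusted p was 0.0553, 0.0548 and 0.055 without flox/flox replicates 1, 2 and 4, with log2 changes of -0.57, -0.56 and -0.59. In mature cells the values were 569, 620, 562 and 493 CPM in flox/WT and 485, 447, 474 and 473 CPM in flox/flox libraries. These groups again did not overlap, although by only a narrow gap, and the change did not pass (log2 change -0.26 ± 0.18, edgeR adjusted p = 0.35).

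In proBpreB cells Cxcr5 was low, at 5.61 to 16.7 CPM in flox/WT and 9.29 to 14.3 CPM in flox/flox mice. The log2 change of 0.30 did not pass (edgeR adjusted p = 0.481). Flox/WT replicate 3 held the highest value, and without it the change was 0.73 and passed (0.00418). The genotype effect in immature cells was lower than in proBpreB cells by a difference of -0.89 ± 0.27 (edgeR adjusted p = 0.0332). This call was lost under 8 alternatives: when any mouse other than flox/WT replicate 3 was left out, with differences of -0.95 to -0.74 and adjusted p from 0.0573 to 0.112, and with only the groups compared in the fit (0.0695).

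Ccr6, the receptor for CCL20, lies on chromosome 17 at 8236043 to 8257141. In immature cells it was 5.43, 5.21, 12.5 and 4.44 CPM in flox/WT and 3.60, 3.49, 3.10 and 2.26 CPM in flox/flox libraries. No value was shared between the groups, and replicate 3 stood apart from the other flox/WT libraries. The log2 change was -1.18 ± 0.29 (edgeR adjusted p = 0.00401). Without flox/WT replicate 3 it was -0.69, and the call was lost (0.0522). In proBpreB cells Ccr6 was near the limit of detection, at 0.231 to 1.01 CPM in flox/WT and 0.183 to 0.469 CPM in flox/flox mice, and a genotype difference was not detectable at this depth. In mature cells it reached 98.9 to 128 CPM and 89.0 to 142 CPM, with a log2 change of 0.04 (95% interval -0.38 to 0.46). The effect in mature cells exceeded that in immature cells by 1.22 ± 0.36 (edgeR adjusted p = 0.0322). That call was lost without flox/flox replicates 1 (1.34, 0.0577), 3 (1.12, 0.118) or 4 (1.03, 0.139), without flox/WT replicate 3 (0.78, 0.142), and with only the groups compared in the fit (1.21, 0.0594).

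Ccr7, which guides lymphocytes to T cell zones through CCL19 and CCL21, lies on chromosome 11 at 99144196 to 99155077. In proBpreB cells it measured 109, 110, 114 and 150 CPM in flox/WT and 64.9, 74.5, 62.6 and 72.5 CPM in flox/flox libraries. All flox/flox values were below all flox/WT values. The log2 change was -0.82 ± 0.13 (95% interval -1.08 to -0.55; edgeR adjusted p = 6.3e-05), a call that held under all 15 alternatives. In these cells 6 of 9 mature B markers were called lower and 1 higher, as given for Cnr2. Their part in the fall of Ccr7 was not tested. In immature cells Ccr7 ran from 327 to 415 CPM in flox/WT and from 295 to 395 CPM in flox/flox mice, and in mature cells from 628 to 792 and from 562 to 821 CPM. Both later stages overlapped between genotypes, with log2 changes of -0.02 and -0.03 and 95% intervals of -0.28 to 0.23 and -0.29 to 0.23. The genotype effect differed from that in proBpreB cells by 0.79 ± 0.18 in immature cells (edgeR adjusted p = 0.00405) and by 0.79 ± 0.18 in mature cells (0.00994), the latter lost without flox/flox replicate 4 (0.70, 0.0565) or flox/WT replicate 4 (0.67, 0.0625).

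Gpr183, the receptor for 7α,25-dihydroxycholesterol, lies on chromosome 14 at 121952551 to 121965195, within the span of Ubac2 but with no shared exonic bases. In immature cells it measured 83.5, 56.9, 55.9 and 49.8 CPM in flox/WT and 21.2, 31.0, 24.8 and 25.8 CPM in flox/flox libraries. Every flox/flox library was well below every flox/WT library, and the mean was 41.8% of that in flox/WT mice. The log2 change was -1.26 ± 0.16 (95% interval -1.58 to -0.93; edgeR adjusted p = 7.82e-07), and the call held under all 15 alternatives. In proBpreB cells the values were 5.52, 7.70, 8.57 and 9.53 CPM in flox/WT and 4.22, 5.58, 5.18 and 3.85 CPM in flox/flox libraries. The groups met at their edges, and Gpr183 was called lower (log2 change -0.73 ± 0.19, edgeR adjusted p = 0.0185). Without flox/flox replicates 1 and 4 or flox/WT replicates 3 and 4 the log2 change was -0.68, -0.65, -0.69 and -0.63 and the adjusted p 0.0758, 0.0963, 0.0643 and 0.0931, and with only the proBpreB groups fitted it was 0.0593. The part of the mature B markers, of which 6 of 9 were lower and 1 higher in proBpreB cells, was not tested.

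In mature cells Gpr183 ran from 290 to 351 CPM in flox/WT and from 253 to 364 CPM in flox/flox mice, with overlap (log2 change -0.15, 95% interval -0.45 to 0.15). The effect in mature cells exceeded that in immature cells by 1.11 ± 0.22 (edgeR adjusted p = 0.00098), a call that held under all 15 alternatives.

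The falls of Cxcr5, Ccr6 and Gpr183 in immature flox/flox cells came beside lower mature B markers. Of 9 such genes, 6 were called lower there, among them H2-Aa, an MHC class II chain (1544 ± 161 CPM in control and 620 ± 95.2 CPM in flox/flox mice, log2 change -1.32), and Fcer2a (CD23, 393 ± 27.0 and 229 ± 46.6 CPM). The list's median log2 change was -0.93, against 0.00 over all genes. Summed over the list, levels ran from 25007 to 29265 CPM in flox/WT and from 18483 to 22925 CPM in flox/flox libraries. All 10 proliferation markers were also called lower in immature flox/flox cells, and the summed level of 12 pro-B and pre-B markers was 624 to 814 CPM in flox/WT against 1207 to 1561 CPM in flox/flox libraries. Of these 12, 4 were called higher, among them Vpreb3 (1.17), and 2 lower, Rag1 (-0.87) and Lef1 (-0.68), with a median log2 change of 0.28. The part of these shifts in the receptor values was not tested.

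Ccr9, the gut-homing receptor for CCL25, lies on chromosome 9 at 123678439 to 123784330. Its gene model shares 2223 of 10260 exonic bases with Slc6a20a, Gm17200 and AC165425.1, so its counts are uncertain where reads fall there. In proBpreB cells it measured 58.8, 61.1, 65.8 and 95.2 CPM in flox/WT and 58.5, 151, 126 and 78.4 CPM in flox/flox libraries. The groups overlapped, and the log2 change of 0.56 ± 0.31 did not pass (edgeR adjusted p = 0.348). At the later stages Ccr9 stayed between 1.74 and 7.63 CPM in all libraries, and the genotype effects of 0.32 and 0.33 did not pass. Across the 24 libraries Ccr9 ranged with Siglech, a surface marker of plasmacytoid dendritic cells (Pearson r = 0.980 of log2 CPM, a description over libraries that share stage and mouse). Siglech measured 249 ± 38.9 CPM in proBpreB flox/WT and 363 ± 100 CPM in proBpreB flox/flox mice. These groups overlapped (218 to 304 and 259 to 453 CPM). The 2 libraries with the highest Ccr9, flox/flox replicates 2 and 3, also had the highest Siglech (445 and 453 CPM). All 10 plasmacytoid dendritic cell markers had a mean of at least 1 CPM in proBpreB cells, and their sum ran from 1324 to 1673 CPM in flox/WT and from 1581 to 2175 CPM in flox/flox libraries. Between genotypes 0 of the 10 were called in proBpreB cells, beside 6.13% of all genes. In immature and mature cells 9 of the 10 reached a mean of 1 CPM, with sums of 975 to 1390 CPM. From proBpreB to immature cells of flox/WT mice 7 of the 10 were called lower (median log2 change -2.40), beside 25.4% of all genes. The part of plasmacytoid dendritic cells in the Ccr9 values was not tested.

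**Figure D3:**
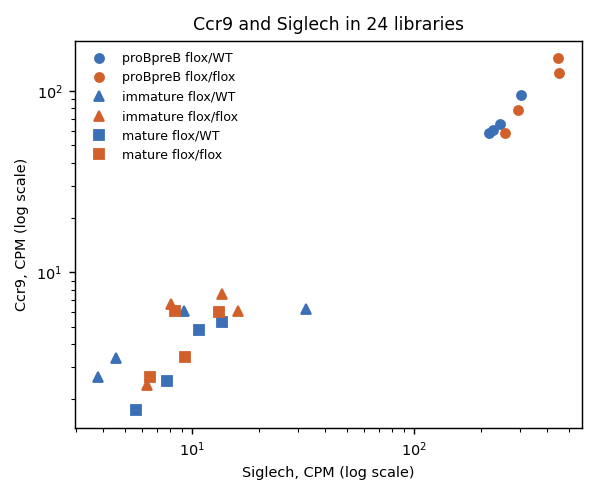
Ccr9 against Siglech in the 24 libraries, both as CPM on log axes, with symbols for the population and colours for the genotype. The 8 proBpreB libraries lie apart at the upper right, with Ccr9 from 58.5 to 151 CPM, and the 16 immature and mature libraries lie below 8 CPM of Ccr9.

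**Figure D4:**
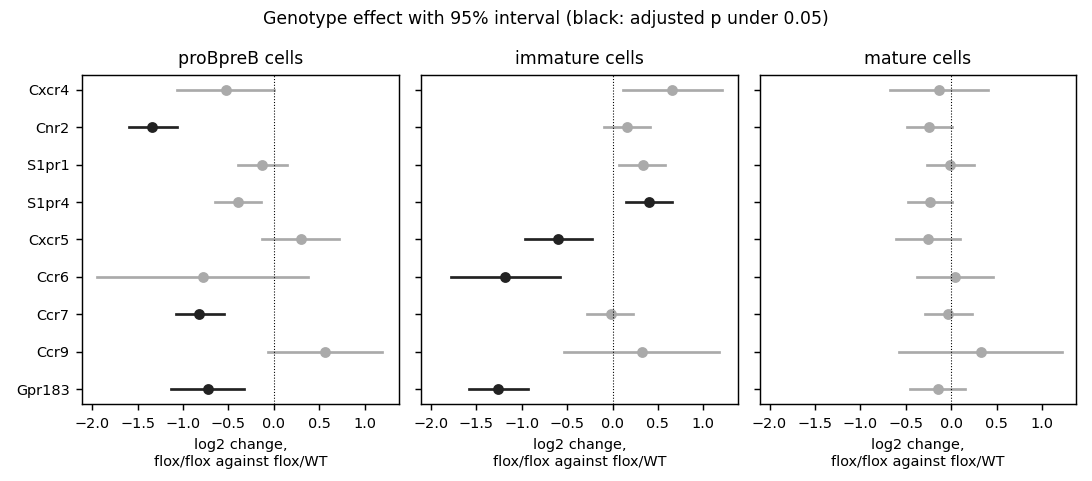
Log2 change of each receptor between flox/flox and flox/WT mice (horizontal axis) with its 95% interval, for proBpreB, immature and mature cells. Black points passed at an adjusted p under 0.05. In proBpreB cells Cnr2 lies farthest from 0 at -1.34, in immature cells Gpr183 at -1.26, and all mature points are grey.

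The genotype effects were then compared between populations, as differences of log2 changes in the same edgeR fit. Between immature and proBpreB cells 5 of the 9 members differed, beside 10.9% of all genes (4.72% higher and 6.14% lower): the effect was higher in immature cells for Cxcr4, Cnr2, S1pr4 and Ccr7, and lower for Cxcr5. Between mature and immature cells 3 differed (Ccr6, Gpr183 and S1pr4), beside 7.74% of all genes (5.51% higher and 2.23% lower). Between mature and proBpreB cells 2 differed (Cnr2 and Ccr7), beside 3.06% of all genes (2.27% higher and 0.786% lower). These comparisons share libraries with each other and with the effects within each population, and are not independent.

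Stage steps of the members ran from -4.17 to 5.24 on the log2 scale, and genotype effects within a population from -1.34 to 0.66. From proBpreB to immature cells of flox/WT mice, 7 members rose and 2 fell, beside 24.0% of all genes higher and 25.4% lower (49.4% in all). Cxcr5 rose most, by 4.87 ± 0.21 on the log2 scale from 9.35 ± 5.06 to 272 ± 17.1 CPM (edgeR adjusted p = 2.7e-16). Cnr2 rose by 2.85, Gpr183 by 2.97, S1pr1 by 2.44, Ccr7 by 1.54 and S1pr4 by 0.43, and Ccr6 rose by 3.35 from a level near the limit of detection. Cxcr4 fell by 1.57 (SE 0.27, edgeR adjusted p = 3.28e-05), from 111 ± 28.3 to 37.2 ± 8.37 CPM. Ccr9 fell by 3.93 (SE 0.37), and Siglech fell by 4.28 in the same step.

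From immature to mature cells of flox/WT mice, 7 members rose, beside 15.6% of all genes higher and 17.1% lower (32.7% in all). The largest step was that of Ccr6, from 6.90 ± 3.78 to 115 ± 15.2 CPM (log2 change 4.02 ± 0.24, edgeR adjusted p = 1.31e-12). Gpr183 followed with 2.42 ± 0.16, from 61.5 ± 15.0 to 329 ± 26.6 CPM. Cxcr5, Ccr7 and Cxcr4 rose by 1.04, 0.96 and 0.96, S1pr4 by 0.72 and S1pr1 by 0.42. The S1pr1 step (edgeR adjusted p = 0.0105) was lost without flox/WT replicates 2 (0.36, 0.083) or 4 (0.38, 0.0563). Cnr2 and Ccr9 had log2 changes of 0.20 and -0.33, which did not pass.

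In flox/flox mice the same steps gave other counts. From proBpreB to immature cells 7 members rose and 1, Ccr9, fell, beside 28.7% of all genes higher and 27.2% lower (55.9% in all). Cxcr4 had a log2 change of -0.37 ± 0.26 (edgeR adjusted p = 0.234), and the difference from the flox/WT step is the 1.20 given above. With only those groups fitted the change was -0.40 and passed (0.0046). From immature to mature cells 4 rose, beside 12.9% of all genes higher and 13.6% lower (26.5% in all), and these were Cxcr5, Ccr6, Ccr7 and Gpr183, all homing receptors. Gpr183 rose by 3.53 ± 0.17 and Ccr6 by 5.24 ± 0.27, larger than in flox/WT mice by the tested differences of 1.11 and 1.22. The retention and egress receptors had log2 changes of -0.20 to 0.16 in this step, without a call. Of the differences between the genotypes' steps, that of S1pr4 passed (-0.63), and those of Cxcr4 (-0.80, edgeR adjusted p = 0.229), Cnr2 (-0.40, 0.174) and S1pr1 (-0.34, 0.299) did not.

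**Figure D5:**
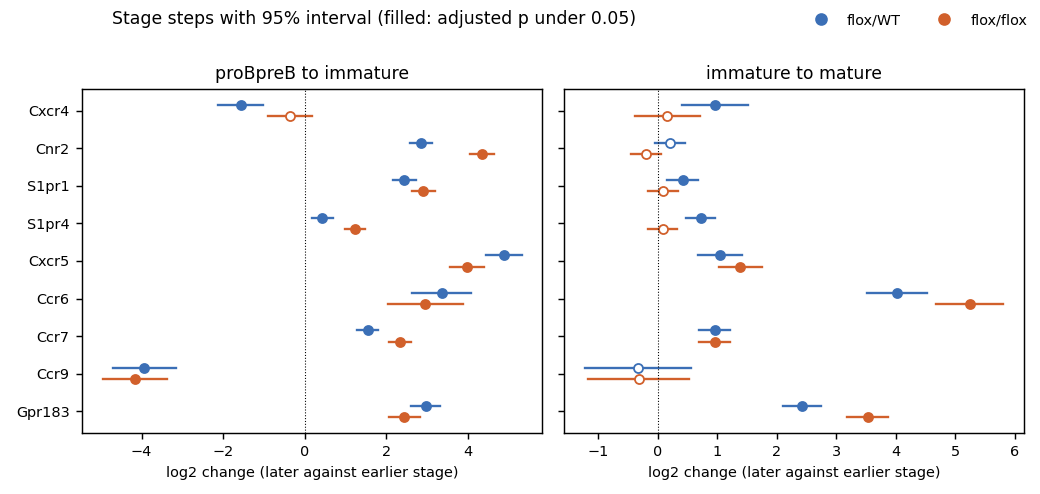
Log2 change of each receptor from proBpreB to immature and from immature to mature cells, with 95% intervals, in flox/WT (blue) and flox/flox mice (orange). Filled points passed at an adjusted p under 0.05. Cxcr4 is filled in both panels for flox/WT mice (-1.57 and 0.96) and open in both for flox/flox mice (-0.37 and 0.16). The first flox/flox step passed with only those groups fitted (-0.40, edgeR adjusted p = 0.0046). The difference between genotypes passed for the first step (1.20, edgeR adjusted p = 0.0391), a call lost under 6 of 15 alternatives. It did not pass for the second step (-0.80, edgeR adjusted p = 0.229).

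Between the ends of the series, mature against proBpreB cells of flox/WT mice, 7 members were called higher and 2 lower, beside 29.2% of all genes higher and 29.6% lower (58.8% in all). Ccr6 had the largest log2 change, 7.37 ± 0.32, followed by Cxcr5 with 5.91 and Gpr183 with 5.39. Ccr9 fell by 4.26. Cxcr4 fell by 0.61 (edgeR adjusted p = 0.0475), a call lost under 7 alternatives, with 0.277 without flox/WT replicate 4 as the highest adjusted p.

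Ordered by level, Cxcr4 was highest in proBpreB flox/WT cells (111 CPM) and lowest in immature flox/WT cells (37.2 CPM), and the other 4 groups, from 76.4 to 59.0 CPM, overlapped each with its neighbour. S1pr1 formed 2 tiers: proBpreB groups at 79.9 and 87.3 CPM, and the later 4 groups at 475 to 636 CPM, each overlapping the next. Cnr2 likewise had 4 overlapping groups at 309 to 365 CPM, but its proBpreB groups, at 44.2 and 17.5 CPM, were apart from each other. Cxcr5 was in steps, with mature flox/WT, mature flox/flox, immature flox/WT and immature flox/flox all apart from their neighbours and only the proBpreB groups overlapping. Per kilobase of exon in mature flox/WT cells, Ccr7 was highest at 347 CPM per kilobase, then S1pr1 at 209, Cxcr5 at 168, Gpr183 at 114, Cnr2 at 91.8, S1pr4 at 56.5, Ccr6 at 49.4, Cxcr4 at 40.2 and Ccr9 at 0.351. In proBpreB flox/WT cells the highest were Cxcr4 at 61.2 and Ccr7 at 61.1, and S1pr1 stood at 28.7.

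Genes that act with these receptors came from lists of pathway genes, whose counts stand beside 6.13% of all tested genes called at the proBpreB stage, 20.7% at the immature and 16.3% at the mature stage. Of 25 genes of CXCL12 receptor signalling, 1 was called higher for genotype in proBpreB cells, 3 higher and 1 lower in immature cells, and 6 higher and 3 lower in mature cells. The list's median log2 changes were -0.09, 0.00 and -0.06, against -0.00, 0.00 and 0.01 over all genes. Arrb1, a β-arrestin that desensitises such receptors, was higher in flox/flox mice in all 3 populations (log2 changes 0.89, 0.73 and 0.51). In mature cells Ackr3, a scavenger of CXCL12, measured 0.241, 1.01, 0 and 0.0952 CPM in flox/WT and 8.81, 11.9, 9.19 and 7.70 CPM in flox/flox libraries. The flox/WT values lay around the worth of 3 counts, and the groups were far apart (log2 change 4.82 ± 0.62, edgeR adjusted p = 1.54e-06). Foxo1, a transcription factor of B cell development, was higher in immature (0.62) and mature cells (0.41), and Rac2, a GTPase of cell migration, was lower in mature cells (-0.39).

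Of 10 regulators of G protein signalling, which shorten chemokine receptor signals, 1 rose and 2 fell in proBpreB cells, 3 rose and 1 fell in immature cells, and 1 rose in mature cells, where 16.3% of all genes were called. Their medians were -0.01, 0.06 and 0.33. Rgs1 measured 1.01, 0.847, 3.59 and 2.52 CPM in proBpreB flox/WT and 12.4, 12.9, 13.3 and 9.26 CPM in proBpreB flox/flox libraries. In immature cells it was at most 1.26 CPM in flox/WT and 3.26 to 10.3 CPM in flox/flox libraries. The groups were apart in both, with log2 changes of 2.59 ± 0.51 and 3.40 ± 0.59 (edgeR adjusted p = 0.00109 and 9.08e-05). Rgs2 fell in proBpreB cells (-0.56) and rose in immature cells (0.52), and Rgs13 rose in mature cells (1.74).

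Of 13 genes of the sphingosine-1-phosphate axis beside the members, 2 fell in proBpreB cells: Klf2, a transcription factor, from 237 ± 36.1 to 129 ± 15.6 CPM (log2 change -0.88, edgeR adjusted p = 1.91e-05), and Cd69, which removes S1PR1 from the surface, from 44.9 ± 11.0 to 22.5 ± 2.83 CPM (-1.0, 0.000758). S1pr1 itself had a log2 change of -0.13 in those cells. In immature cells 1 was called lower, S1pr5 (-1.61), at 0.631, 2.29, 8.92 and 2.41 CPM in flox/WT and 1.33, 0.279, 0.834 and 2.26 CPM in flox/flox libraries. Its groups overlapped, and flox/WT replicate 3 was far above the other flox/WT libraries. In mature cells Ppap2b, a lipid phosphatase, rose (0.60) and Spns2, a sphingosine-1-phosphate exporter, fell from 70.2 ± 6.31 to 34.7 ± 8.30 CPM (-1.02, edgeR adjusted p = 3.87e-05). The medians of the list were 0.01, -0.21 and 0.19.

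Of 17 other chemokine receptors 12 were tested. In proBpreB cells 0 were called by edgeR, and 2 had an unadjusted p under 0.05. Of the 12, 1 rose and 1 fell in immature cells (Cxcr2, 0.78, and Cx3cr1, -0.94), and 2 rose in mature cells (Ccrl2, 1.41, and Ccr1, 0.68). Their medians were -0.01, 0.23 and 0.32. Summed neutrophil and monocyte markers were higher in immature flox/flox (11600 to 15541 CPM) than in immature flox/WT libraries (7925 to 9362 CPM). In mature cells these sums overlapped (12322 to 20028 and 11216 to 17536 CPM). Their part in the values of these receptors was not tested. Of 10 oxysterol and endocannabinoid genes 6 were tested. Faah, which degrades anandamide, rose in proBpreB cells (0.77), fell in immature cells (-1.0) and rose in mature cells (0.48). In immature cells Mgll, which degrades 2-arachidonoylglycerol, also rose (0.91) and Abhd6, another hydrolase of it, fell (-0.74). The medians of the 6 were 0.10, 0.03 and 0.03.

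By Pearson correlation of log2 CPM over the 24 libraries, genes whose pattern was among the 3 most like that of each member were Sepp1 (0.903), Usp3 and Zfp51 for Cxcr4, Ero1lb (0.990), Cd40 and Scd1 for Cnr2, and Bank1 (0.992), Il4ra and Klf3 for S1pr1. For S1pr4 they were Ctdsp1 (0.953), Cdc42se1 and Cyp4f18. Among homing receptors they were Irak2 (0.986), Rhof and Ngfr for Cxcr5, Stap1 (0.981), Icosl and Gpr183 for Ccr6, Lmbrd1 (0.985) and Fcer2a for Ccr7, and Shisa5 (0.993), Ms4a4c and H2-Aa for Gpr183. For Ccr9 they were Siglech (0.980), Il7r and Runx2. The libraries share stages and mice, so these values describe the pattern only. Cxcr4 had the lowest best match of the 9.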

How the data were processed

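Counts of RNA-seq reads were analysed for 24 libraries (8 mice, 3 sorted populations). The authors deposited raw counts per gene symbol. Per the labels' protocols, RNA came from the RNeasy plus micro kit and libraries from Takara's SMARTer low input kit. The submitters' processing notes name CASAVA, FastQC, Trim Galore, HISAT2, featureCounts, DESeq2 and the build mm10. Versions, annotation and strand setting: not given in the sources used here. Reads from genes that overlap, also antisense, could therefore have been mixed. Sample titles open with a running number, which names the table's columns.

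Counts were fitted with edgeR 4.0.16 in R 4.3.3 (TMM, filterByExpr on the 6 groups, robust quasi-likelihood). The fit held all 24 libraries, 12850 genes and 18 residual degrees of freedom. Adjustment of p-values was by Benjamini-Hochberg within each of 11 comparisons, with a threshold of 0.05. The test was first tested on simulated data. Groups are means ± SD of TMM-scaled CPM. SE was taken as the log2 change divided by the root of the F statistic. Library totals ran from 7850186 to 11863949 counts. Limits based on 3 counts cover counting error only, since reads carried no molecular identifiers.

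Members and gene lists were chosen with earlier results of these data known. Named pathway genes are up to 4 per list and comparison with the smallest adjusted p. Likeness used log2 CPM with a prior count of 2, and the 3 highest Pearson correlations without unnamed clone symbols; 1 gene so named is not reported here. The alternatives were RLE size factors, no filter, DESeq2 1.42.0, a minimum of 10 CPM in 4 libraries, a fit of only the groups compared, a block, the sex of the mouse as read from the data (3 females and 1 male in each genotype) and leaving out each of the 8 mice. Libraries of a mouse are paired across populations by the host label: deviations from group means over 5000 genes correlated at -0.284 to 0.372, over 0.1 in 16 of 24 pairs. Between libraries of a group, chi-square over its degrees of freedom was at least 5.82, and none were counted as 1 library.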

Additional observations from a re-analysis of the deposited data

Results flagged for a closer look

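In 5 of 54 groups of 4 libraries, a library lay far from the other 3 by Dixon's ratio of the gap to the range at its 95% critical value, which chance gives in about 1 in 20 groups. Flox/WT replicate 4 was high in proBpreB cells for Cnr2 (ratio 0.896) and Ccr7 (0.863). Flox/flox replicate 4 was low in proBpreB cells for Ccr6 (0.908), at a level under that of 3 counts. In immature flox/WT cells replicate 3 was high for Ccr6 (0.878) and replicate 1 for Ccr7 (0.911).

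The genotype effect differed between populations in 10 of 27 tests of the difference itself (edgeR). Of all genes, 10.9% differed between immature and proBpreB cells, 7.74% between mature and immature cells and 3.06% between mature and proBpreB cells. The tests share libraries and are not independent. Vhl, which is not a member, also differed between immature and proBpreB cells (-1.34). Against proBpreB cells, the effect in immature cells was higher by 1.20 for Cxcr4, 1.49 for Cnr2, 0.80 for S1pr4 and 0.79 for Ccr7 on the log2 scale, and the difference for Cxcr5 was -0.89. Against immature cells, the effect in mature cells differed by -0.63 for S1pr4, 1.22 for Ccr6 and 1.11 for Gpr183. Against proBpreB cells, it differed in mature cells by 1.10 for Cnr2 and 0.79 for Ccr7. Of these 10 differences, 5 were kept under every one of the 15 alternatives. They were Cnr2, S1pr4 and Ccr7 between immature and proBpreB cells, Gpr183 between mature and immature cells, and Cnr2 between mature and proBpreB cells.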

How the results depend on the processing

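Of 99 member changes, 54 passed the threshold and 43 of these passed under each of 15 alternatives, while 11 were lost under at least 1 and 7 others passed under at least 1. Most were stage comparisons: 28 stage steps passed (27 kept), and 9 changes of mature against proBpreB cells (8 kept). Genotype effects within a population passed in 7 (3 kept) and their differences in 10 (5 kept). Of all genes, 3.06% to 58.8% were called, depending on the comparison. Over 1484 changes recomputed, 1393 kept direction and call, 46 lost and 18 gained the call, and 27 turned direction, in 9 results of which 0 had passed. The cause was not tested. Genes called for genotype in mature cells fell from 2096 to 1296 with only the groups compared, a fit of fewer libraries, and those for the difference between mature and proBpreB cells rose from 393 to 606 with DESeq2. The log2 effect of S1pr1 in mature cells was 0.01 with the 10 CPM filter, and the mature minus immature difference of Ccr7 was 0.00 with RLE, 0.02 without a filter and 0.00 with DESeq2.

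Leaving out each mouse, genes called in proBpreB cells ran from 466 to 1015 (788 with all mice), and members called in immature cells from 2 to 5. The log2 effect of Ccr7 in immature cells ran from -0.10 to 0.06. In mature cells Cxcr4 ran from -0.46 to 0.23, S1pr1 from -0.10 to 0.06, Ccr6 from -0.06 to 0.15 and Ccr7 from -0.14 to 0.04. The immature to mature step in flox/flox mice ran from -0.16 to 0.37 for Cxcr4 and from -0.01 to 0.22 for S1pr1. For immature minus proBpreB, genes called ran from 805 to 1807 (1395) and members from 3 to 5. For mature minus immature they ran from 661 to 1129 (995) and from 1 to 3, with Ccr7 from -0.14 to 0.14 and Ccr9 from -0.09 to 0.15. For mature minus proBpreB they ran from 254 to 444 (393) and from 1 to 3. The log2 difference of Vhl in proBpreB cells ran from -1.58 to -1.27 (exact permutation p = 0.0571 without each flox/WT mouse).

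In genotype comparisons the replicate number is only a number: same-numbered libraries correlated at -0.302 to 0.544, over 0.1 in 5 of 12 pairs. With that replicate block S1pr4 in proBpreB cells (-0.40, edgeR adjusted p = 0.0211), Cxcr4 (0.71, 0.00929) and S1pr1 (0.32, 0.0462) in immature cells passed. The mouse as a block changed no call of a member in the stage steps or differences between populations. Depth limits Ccr6 in proBpreB cells, where levels are near the worth of 3 counts.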
